A study of Mus musculus with 12 samples.

Results

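The T cell receptor signaling genes described here are 40 genes for the receptor's CD3 chains, the kinases and adaptors that act directly behind them, the enzymes that carry the signal onward, and the molecules that tune or restrain it. They were chosen as a fixed list of symbols, and all 40 were found among the 26608 genes listed in each of the 12 libraries. RNA was sequenced from CD4+ YFP(FOXP3)- T cells of 14-week-old mice, with YFP reporting FOXP3 and 1 library per mouse. The cells were pooled from spleen and from cervical and inguinal lymph nodes of 4 *Foxp3Cre WT* mice (WT) and 8 *Foxp3Cre Tet2/3 flox/flox* mice, of which 4 were DKO-moderate and 4 DKO-severe. All 12 mice carried *Foxp3Cre*. The study separated moderate from severe mice by their total number of leukocytes in spleen and lymph nodes, so that the DKO groups differ in severity and share a genotype. *Foxp3Cre* follows the activity of *Foxp3*, and its expression has also been regarded as leaky. The study describes the sorted YFP- cells of DKO mice as ex-Treg cells, which lost FOXP3, together with conventional CD4+ T cells. By fate mapping it traced nearly all FOXP3- T follicular helper cells of DKO-severe mice to ex-Treg cells. The sorted YFP- cells of the DKO mice can therefore hold cells with and without the deletion.

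When a T cell receptor binds its ligand, LCK phosphorylates the tyrosine motifs of the CD3 chains and of the zeta chain encoded by *Cd247*. ZAP-70 docks on these motifs and phosphorylates the scaffold LAT and its partner SLP-76. The adaptor GADS, encoded by *Grap2*, joins LAT to SLP-76, and phospholipase C gamma 1, RASGRP1, and protein kinase C theta carry the signal from there to calcium, RAS, and NF-kB. CD5, CD6, CSK, the STS proteins, SLAP, the dual specificity phosphatases, and the Sprouty proteins act as brakes at different levels.

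In DKO-severe, genes whose products act next to each other in this cascade moved in opposite directions. *Lat* fell to 36.2% and *Grap2* to 19.2% of their WT means, while *Zap70* rose to 201%. Among the receptor chains *Cd247* fell to 43.7% of WT, and *Cd3e* was at 122%. Among the brakes, *Cd5*, *Cd6*, *Csk*, *Ubash3a*, *Ubash3b*, *Dusp2*, and *Dusp5* fell, and *Sla*, *Spry1*, and *Spry2* rose. These changes passed the threshold of the test, an adjusted p-value of 0.05 in edgeR's quasi-likelihood test over all 16035 genes with enough reads.

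Promoter sequences are shown for *Cd247*, *Lat*, *Grap2*, and *Spry2*, genes on which the results turn and which moved in different directions. The windows are the 250 bases before the RefSeq start (GRCm38.p6), written on the gene's strand, and capitals mark matches to the motifs named after them.
*Cd247*, chr1:165788431-165788680, plus strand: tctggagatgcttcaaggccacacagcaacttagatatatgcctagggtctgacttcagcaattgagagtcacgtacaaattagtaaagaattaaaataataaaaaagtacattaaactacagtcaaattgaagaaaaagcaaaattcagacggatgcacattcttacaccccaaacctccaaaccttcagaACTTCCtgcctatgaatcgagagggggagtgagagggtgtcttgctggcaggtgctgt
*Lat*, chr7:126369569-126369818, minus strand: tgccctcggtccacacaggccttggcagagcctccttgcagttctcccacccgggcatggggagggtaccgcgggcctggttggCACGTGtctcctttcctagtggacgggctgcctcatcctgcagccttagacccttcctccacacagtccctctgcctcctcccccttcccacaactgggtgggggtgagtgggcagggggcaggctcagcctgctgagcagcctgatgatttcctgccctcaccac
*Grap2*, chr15:80623233-80623482, plus strand: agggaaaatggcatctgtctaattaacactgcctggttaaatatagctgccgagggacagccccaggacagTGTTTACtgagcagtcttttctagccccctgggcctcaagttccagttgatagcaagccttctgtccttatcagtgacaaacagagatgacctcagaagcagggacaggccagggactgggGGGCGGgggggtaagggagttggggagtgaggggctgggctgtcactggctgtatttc
*Spry2*, chr14:105896820-105897069, minus strand: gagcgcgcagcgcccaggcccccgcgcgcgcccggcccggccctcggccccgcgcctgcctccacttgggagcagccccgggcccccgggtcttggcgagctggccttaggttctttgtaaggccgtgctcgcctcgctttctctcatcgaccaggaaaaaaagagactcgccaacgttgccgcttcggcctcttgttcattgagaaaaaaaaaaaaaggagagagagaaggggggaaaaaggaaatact
The motifs searched on both strands were GGAAGT (ETS factors), TGTGGT (RUNX), GTAAACA (forkhead), TTTCCA (NFAT), TGANTCA (AP-1), CACGTG (E-box), GGGCGG (GC box), and CTTTGA (TCF and LEF). The *Cd247* window held 1 ETS match, 58 bases before the start. In the *Lat* window an E-box began 166 bases before the start, and the *Grap2* window held a forkhead match 179 bases and a GC box 58 bases before the start. The RefSeq start of *Grap2* lies within the gene as GENCODE draws it, which begins further upstream. The *Spry2* window, with 62.4% G and C, held none of these letters, which says only that they are absent from this window. Over the promoters of the members in RefSeq (48 windows from 35 of the 40 genes), the ETS letters were in 39.6%, against 19.7% of 32817 promoters of all genes. The shares were 35.4% against 32.7% for the GC box, 16.7% against 18.6% for NFAT, 12.5% against 14.0% for RUNX, 12.5% against 13.8% for TCF and LEF, 4.17% against 6.02% for the E-box, 2.08% against 3.16% for forkhead, and 2.08% against 6.75% for AP-1. A match is a description of letters and not of a factor bound there.

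Values are CPM, read counts on genes scaled by TMM to a common library size. Fold changes are given as log2 with their standard error (SE). Between 10 and 114870 reads stood behind each value of a member, and all 40 members passed the filter on low counts. In DKO-severe against WT, 30 of the 40 genes passed the threshold (75.0%), against 52.6% of all genes tested. Of these, 22 were lower in DKO-severe, where 25.9% of all genes were lower, and 8 were higher, where 26.6% of all genes were higher. The CPM ranges of both groups were apart for 31 members (77.5%) and for 51.9% of all genes. In DKO-moderate against WT, 11 members passed (27.5%), against 17.1% of all genes, 8 of them higher and 3 lower, where the shares over all genes were 12.3% and 4.74%. Ranges were apart for 14 members (35.0%), against 24.8% of all genes. Between DKO-severe and DKO-moderate, 16 members passed (40%), against 20.1% of all genes, with 2 higher and 14 lower, against 9.41% and 10.7%. Ranges were apart for 15 members (37.5%), against 21.3%. The members were more abundant than most genes tested, with a median mean level of 296 CPM against 15.9 CPM. Among the 8948 genes with a mean of at least 10 CPM, 56.5% passed in DKO-severe against WT, 34.5% lower and 22.0% higher, beside 29 of the 39 members at that level. The median log2 fold change of the members in DKO-severe was -0.32, with a range from -2.38 to 4.49, and the median over all genes tested was -0.0054. Scaling by library size alone moved that median over all genes to 0.178 and gave 31 members past the threshold in DKO-severe against WT, 13 higher and 18 lower, beside 51.2% of all genes. In DKO-severe against DKO-moderate it gave 15, with 4 higher and 11 lower, beside 18.1%.

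**Figure D1:**
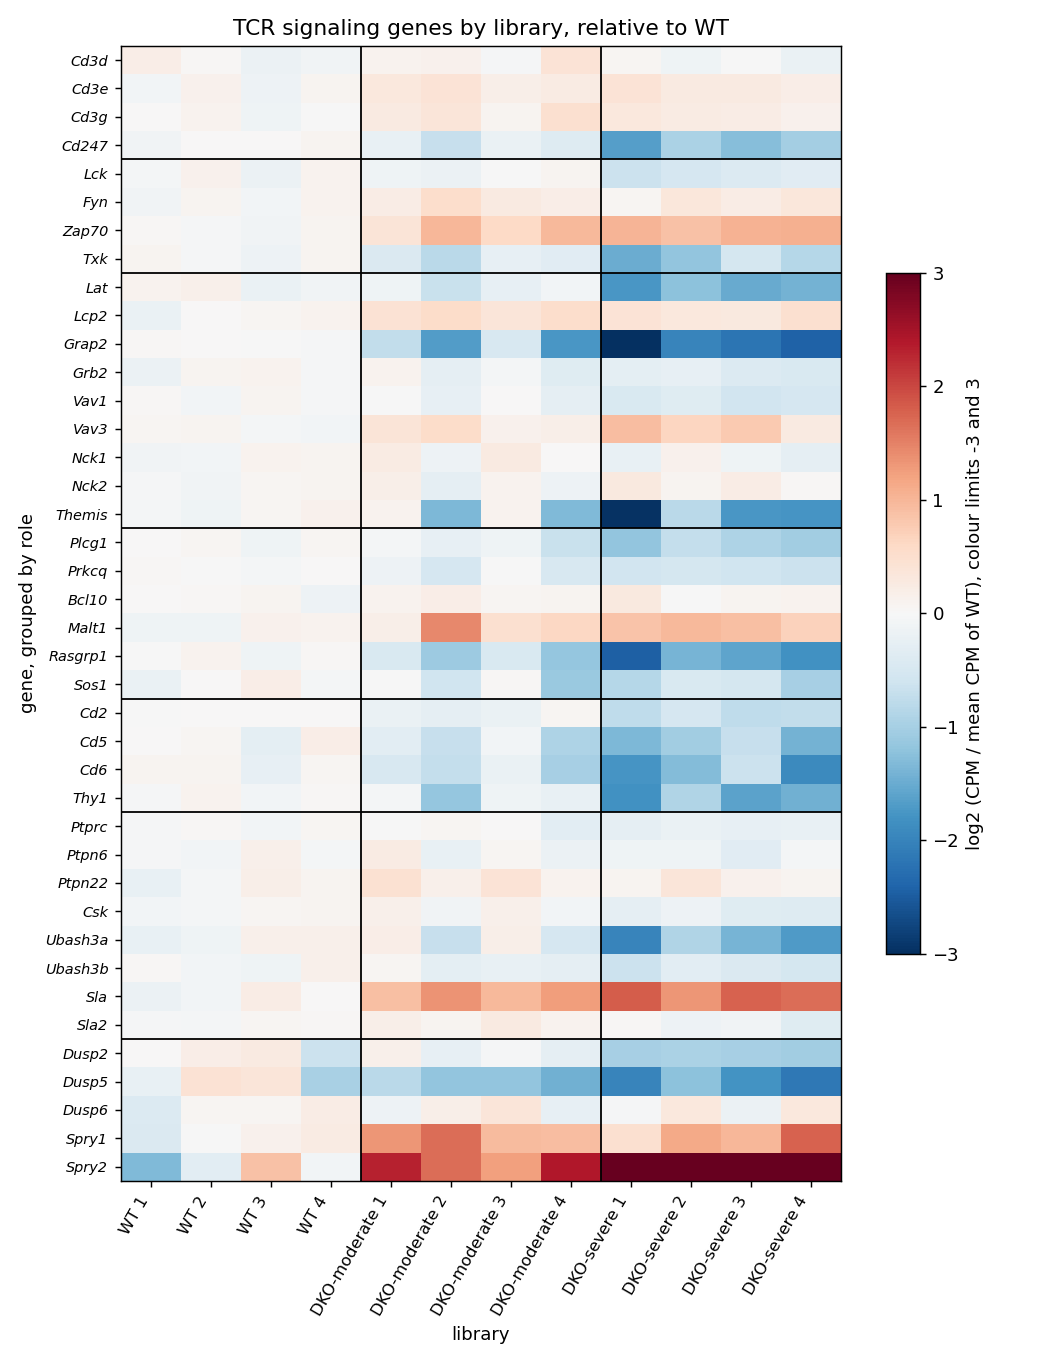
Heat map of the 40 genes (rows, grouped by role with black lines between roles) in the 12 libraries (columns), coloured by log2 of CPM over the mean CPM of WT, with colours held at -3 and 3. *Grap2*, *Themis*, *Rasgrp1*, and *Lat* darken toward blue in DKO-severe, *Sla* and *Spry2* toward red, and the columns DKO-moderate 2 and DKO-moderate 4 are bluer than the other columns of that group for *Grap2*, *Themis*, and *Rasgrp1*.

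Because the libraries are bulk RNA, fewer cells of a type and less RNA per cell cannot be told apart in any of these values. The summed level of 7 genes typical of naive T cells was 4399 to 5101 CPM in WT, 2463 to 3925 CPM in DKO-moderate, and 1655 to 2231 CPM in DKO-severe. The 4 measured T cell genes, *Cd3d*, *Cd3e*, *Cd3g*, and *Cd4*, summed to 2347 to 2588 CPM in WT and 2555 to 2898 CPM in DKO-severe, so that the labelled cell type carried its defining transcripts in every library. Transcripts of other cells were high in some libraries. The 10 neutrophil genes summed to 0 to 1.90 CPM in WT and 9.60 to 2052 CPM in DKO-severe, with DKO-severe 1 at 2052 CPM and DKO-severe 2 at 756 CPM. The 9 B cell genes summed to 84.6, 327, 52.2, and 136 CPM across DKO-severe and to 2.39 to 6.90 CPM in DKO-moderate. In WT they were at 216 CPM in WT 3 and at 1.18 to 2.94 CPM in the other 3 libraries. The 8 monocyte and macrophage genes ranged from 4.80 to 185 CPM in WT and from 68.2 to 367 CPM in DKO-severe, and the 6 plasma cell genes from 61.0 to 161 CPM and from 198 to 359.7 CPM. Much of the plasma cell sum was *Xbp1*, at 48.6 to 57.8 CPM in WT and 113 to 160 CPM in DKO-severe. *Jchain* was at 0.259 to 79.9 CPM in WT and 43.1 to 163 CPM in DKO-severe. *Sdc1* reached at most 6.68 CPM and *Tnfrsf17* at most 0.324 CPM in any library. The 2 CD8 genes stayed at or below 26.7 CPM and the 6 measured erythroid genes at or below 47.1 CPM in every library. Without WT 3, DKO-severe 1, and DKO-severe 2, a choice made after these levels were seen, 26 members passed in DKO-severe against WT, 9 in DKO-moderate against WT, and 13 between the DKO groups, beside 43.1%, 16.5%, and 13.3% of all genes in the same fit. WT 2, DKO-moderate 2, DKO-moderate 4, and DKO-severe 3 had 24 or fewer reads on Y-linked genes, and the other 8 libraries had at least 11396. The labels give no sex.

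**Figure D2:**
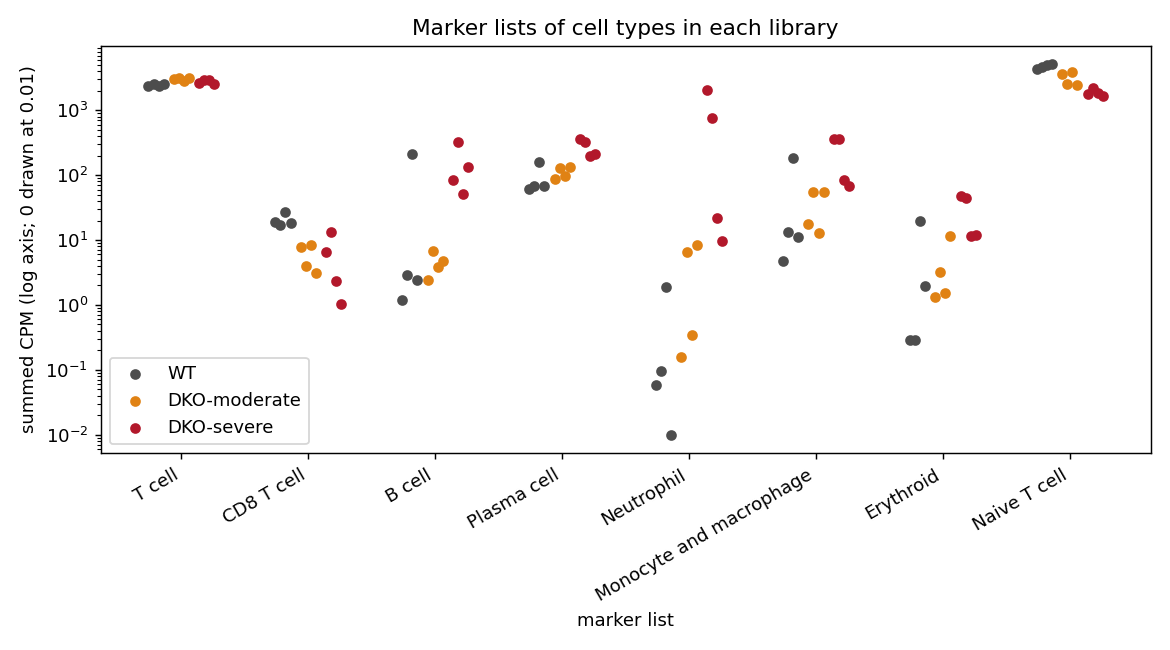
Summed CPM of each marker list (log axis, with 0 drawn at 0.01) in every library, 1 point per library and a colour per group. The T cell list lies between 2347 and 3134 CPM in all 12 libraries, the naive list steps down from WT to DKO-severe, and neutrophil transcripts stand out in 2 of the DKO-severe libraries.

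Of the 4 receptor chains, 1 rose and 1 fell in DKO-severe against WT, and 2 did not pass the threshold. In this comparison 52.6% of all genes tested passed, 26.6% higher and 25.9% lower. The counts by role rest on few genes each and are given beside these shares. CD3 delta, epsilon, and gamma pair with one another beside the antigen-binding chains, and CD247, the zeta chain, forms the dimer that holds most of the signaling motifs of the complex. *Cd3d* (chr9:44981786-44987339 in the GENCODE vM21 annotation of GRCm38, the assembly called mm10) was counted at 581, 519, 446, and 467 CPM across WT, 539, 549.7, 488, and 671 CPM across DKO-moderate, and 525, 460.3, 502, and 440.4 CPM across DKO-severe. *Cd3e* (chr9:44998740-45009627) was at 368, 427, 353, and 409.7 CPM across WT, 484, 514, 439.7, and 465 CPM across DKO-moderate, and 517, 467, 473, and 450.3 CPM across DKO-severe. *Cd3g* (chr9:44969572-44980431) was at 556, 589.5, 504, and 545 CPM across WT, 659.7, 709, 583, and 764 CPM across DKO-moderate, and 680.3, 647, 644, and 601 CPM across DKO-severe. These 3 genes lie side by side on chromosome 9, and none of them was lower in a DKO group beyond the threshold. For *Cd3d* all 3 groups overlapped. Every DKO library lay above every WT library for *Cd3e*, whereas for *Cd3g* the DKO-moderate range reached down into that of WT. The log2 fold change of *Cd3e* was 0.29 (SE 0.09, adjusted p = 0.0129 in edgeR) in DKO-severe against WT and 0.29 (SE 0.09, adjusted p = 0.0368 in edgeR) in DKO-moderate against WT. For *Cd3g* it was 0.23 (SE 0.09, adjusted p = 0.0525 in edgeR) in DKO-severe and 0.31 (SE 0.09, adjusted p = 0.0383 in edgeR) in DKO-moderate. For *Cd3d* it was -0.06 (SE 0.11, adjusted p = 0.666 in edgeR) in DKO-severe. Without WT 3, DKO-severe 1, and DKO-severe 2, the call of *Cd3e* in DKO-severe was lost (adjusted p = 0.189 in edgeR). In DKO-moderate the calls of *Cd3e* and *Cd3g* were lost in 6 and 8 of the 12 fits made without 1 library.

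*Cd247* went the other way. It lies on chromosome 1 (chr1:165788681-165877277) and was at 419, 451, 451, and 476 CPM across WT, 388, 279.5, 389, and 342 CPM across DKO-moderate, and 143, 232, 186, and 223 CPM across DKO-severe. The groups did not overlap, with every DKO-moderate library between the lowest WT and the highest DKO-severe library. Its log2 fold change was -1.20 (SE 0.15, adjusted p = 5.44e-05 in edgeR) in DKO-severe against WT, -0.36 (SE 0.15, adjusted p = 0.111 in edgeR) in DKO-moderate against WT, and -0.83 (SE 0.15, adjusted p = 0.00523 in edgeR) between DKO-severe and DKO-moderate. Per kb of exon, the mean level of *Cd247* in WT was 84.3 CPM, beside 95.5 CPM for *Cd3e*, 168 CPM for *Cd3g*, and 277 CPM for *Cd3d*. In DKO-severe the level of *Cd247* per kb was 36.8 CPM and that of *Cd3e* 117 CPM.

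Of the 4 proximal kinases, *Zap70* rose, *Lck* and *Txk* fell, and *Fyn* did not pass in DKO-severe against WT. The share of all genes that passed was 52.6%. LCK, bound to the CD4 coreceptor, starts the cascade, and FYN is a related SRC family kinase. ZAP-70 is recruited to the phosphorylated chains, and TXK belongs to the TEC family. *Lck* (chr4:129548344-129573641) was counted at 1024, 1171, 943, and 1146 CPM across WT, 983, 944, 1055, and 1132 CPM across DKO-moderate, and 688, 751, 800.3, and 839.9 CPM across DKO-severe. WT and DKO-moderate overlapped, and all DKO-severe libraries lay below both. For *Lck* the log2 fold change was -0.48 (SE 0.10, adjusted p = 0.00163 in edgeR) against WT and -0.42 (SE 0.10, adjusted p = 0.0137 in edgeR) against DKO-moderate. *Zap70* (chr1:36761798-36782818) was at 319, 303, 288, and 327 CPM across WT, 406, 614, 469, and 610.3 CPM across DKO-moderate, and 627, 573, 639, and 643 CPM across DKO-severe. Here every DKO library was above every WT library, and DKO-moderate 2 and DKO-moderate 4 lay among the DKO-severe libraries. For *Zap70* the log2 fold change was 1.0 (SE 0.12, adjusted p = 5.34e-05 in edgeR) in DKO-severe, 0.76 (SE 0.12, adjusted p = 0.00178 in edgeR) in DKO-moderate, and 0.24 (SE 0.12, adjusted p = 0.173 in edgeR) between the DKO groups. *Txk* ranged from 118 to 139 CPM in WT and from 46.7 to 90.3 CPM in DKO-severe, with a log2 fold change of -0.97 (SE 0.18, adjusted p = 0.000823 in edgeR). *Fyn* had a log2 fold change of 0.25 (SE 0.10, adjusted p = 0.0533 in edgeR) in DKO-severe and 0.30 (SE 0.10, adjusted p = 0.0548 in edgeR) in DKO-moderate, and neither passed the threshold in edgeR.

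**Figure D3:**
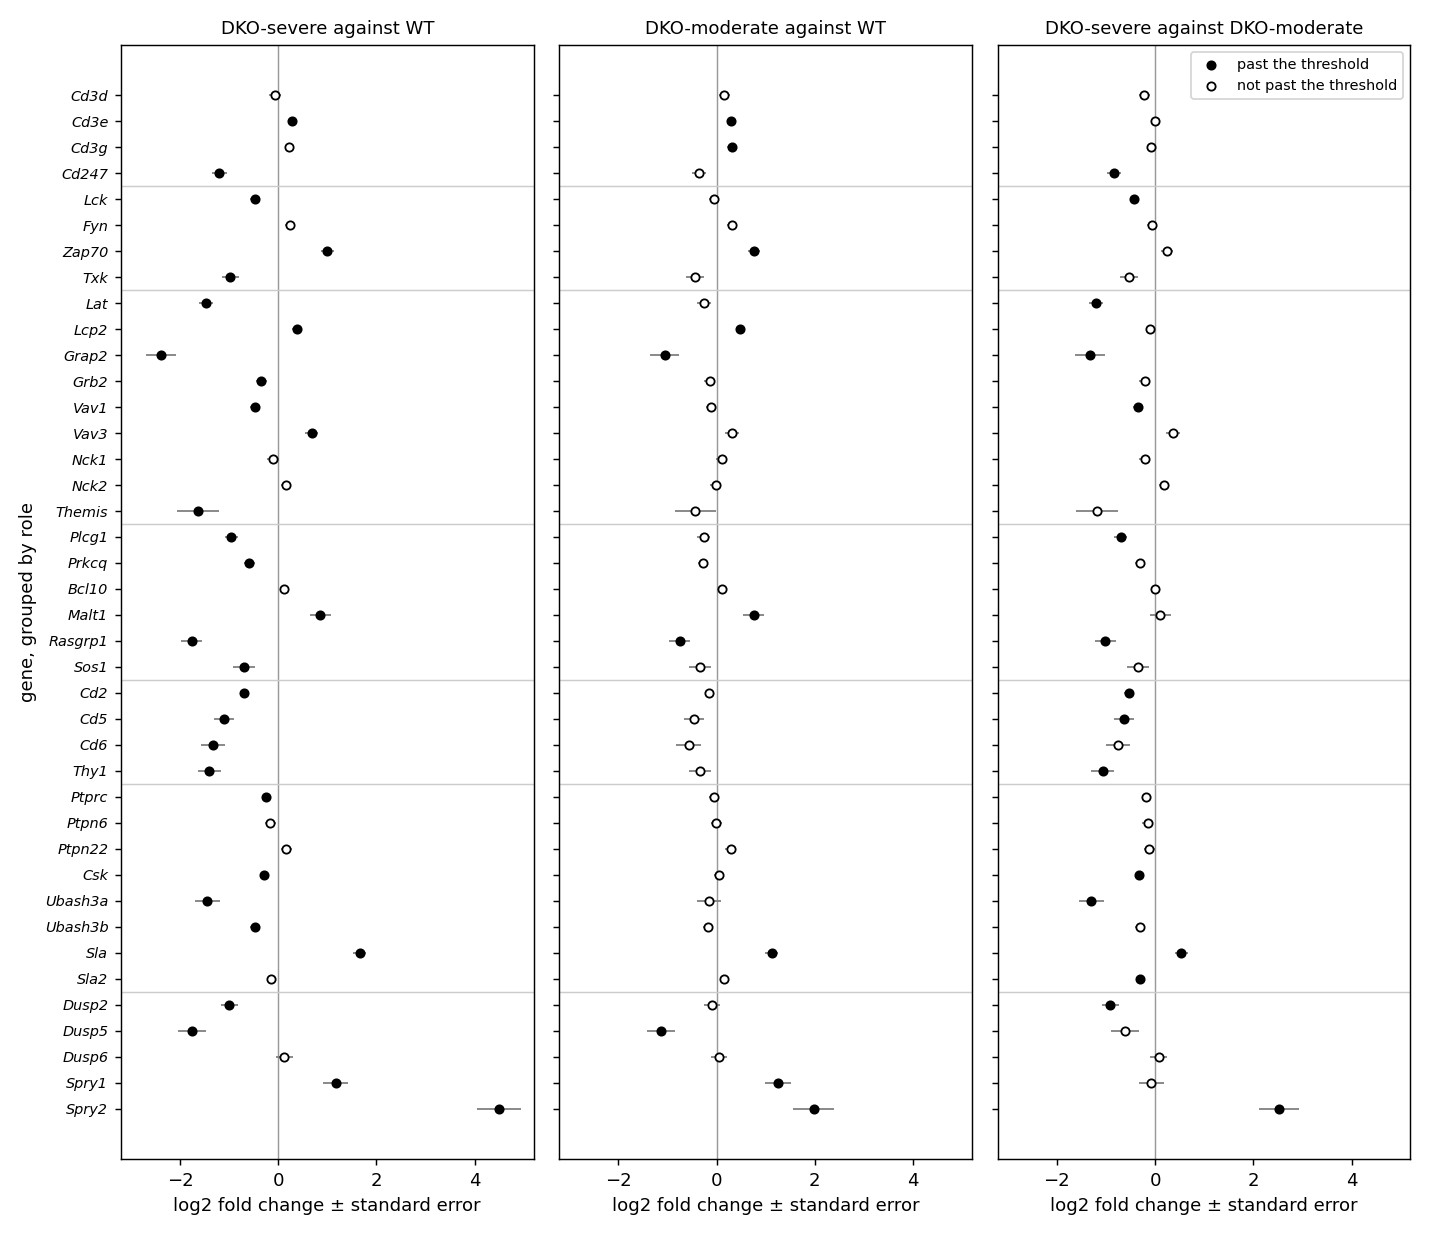
Log2 fold change (x axis, with its standard error as a bar) of each gene (y axis, grouped by role) in the 3 comparisons, with filled points past the threshold and open points not past it. In DKO-severe against WT the filled points run from *Grap2* at -2.38 to *Spry2* at 4.49, and in DKO-moderate against WT most points are open.

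Of the 9 adaptors and exchange factors at the LAT complex, 5 fell and 2 rose in DKO-severe against WT. Over all genes, 25.9% fell and 26.6% rose. *Grap2* had the lowest log2 fold change of the 40 genes. LAT is a membrane scaffold whose phosphorylated tyrosines bind phospholipase C gamma 1, GRB2, and GADS. *Lat* (chr7:126363824-126369570) was counted at 851, 880.1, 684, and 736 CPM across WT, 721, 498, 664, and 739 CPM across DKO-moderate, and 234, 336, 275, and 294 CPM across DKO-severe. WT and DKO-moderate overlapped, and the highest DKO-severe library was below the lowest library of either. For *Lat* the log2 fold change was -1.47 (SE 0.15, adjusted p = 1.48e-05 in edgeR) in DKO-severe against WT, -0.27 (SE 0.14, adjusted p = 0.223 in edgeR) in DKO-moderate against WT, and -1.20 (SE 0.15, adjusted p = 0.00203 in edgeR) between the DKO groups. *Grap2* (chr15:80572594-80652854), the gene of GADS, was at 389, 385, 381, and 375 CPM across WT, 231, 119, 272, and 115 CPM across DKO-moderate, and 41.9, 97.2, 84.2, and 70.8 CPM across DKO-severe. The WT libraries lay within a narrow band, the DKO-severe libraries reached at most 97.2 CPM, and DKO-moderate spread between them by 2.37-fold from its lowest to its highest library. Its log2 fold change was -2.38 (SE 0.31, adjusted p = 6.54e-05 in edgeR) in DKO-severe against WT, -1.06 (SE 0.29, adjusted p = 0.0282 in edgeR) in DKO-moderate against WT, and -1.32 (SE 0.30, adjusted p = 0.0112 in edgeR) between the DKO groups. The call in DKO-moderate was lost in 5 of the 12 fits that left out 1 library (WT 1, WT 2, WT 4, DKO-moderate 2, or DKO-moderate 4), with log2 fold changes from -1.07 to -0.89 in these 5. *Themis*, an adaptor of the T cell lineage that binds GRB2 and is needed when thymocytes are selected, was at 186, 177, 202, and 213 CPM across WT, 211, 76.8, 209, and 77.9 CPM across DKO-moderate, and 25.0, 112, 58.4, and 57.0 CPM across DKO-severe. DKO-moderate 2 and DKO-moderate 4 were far below DKO-moderate 1 and DKO-moderate 3, which lay within the WT range, and all DKO-severe libraries were below WT. The log2 fold change was -1.62 (SE 0.43, adjusted p = 0.00749 in edgeR) in DKO-severe and -0.44 (SE 0.42, adjusted p = 0.502 in edgeR) in DKO-moderate.

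Of the other 6 genes in this group, *Lcp2*, which encodes SLP-76, was higher than in WT in both DKO groups. *Lcp2* was at 376 ± 34.6 CPM (SD over 4 mice) in WT, 521 ± 31.7 CPM (SD over 4 mice) in DKO-moderate, and 487 ± 31.5 CPM (SD over 4 mice) in DKO-severe, with log2 fold changes of 0.47 (SE 0.09, adjusted p = 0.00363 in edgeR) in DKO-moderate and 0.38 (SE 0.09, adjusted p = 0.00335 in edgeR) in DKO-severe. *Vav1* and *Vav3* are exchange factors for small GTPases that act on the actin cytoskeleton, and they differed in direction. *Vav1* had a log2 fold change of -0.48 (SE 0.09, adjusted p = 0.000646 in edgeR) and *Vav3* of 0.68 (SE 0.14, adjusted p = 0.00139 in edgeR) in DKO-severe against WT. Per kb of exon *Vav1* remained the more abundant, at 50.9 CPM against 6.95 CPM in DKO-severe. *Grb2*, which brings SOS1 to LAT, had a log2 fold change of -0.35 (SE 0.11, adjusted p = 0.0199 in edgeR) in DKO-severe. It shares part of its strand with another counted gene, *Gm11702*, where reads cannot be assigned with certainty, and its call was lost in 7 alternative fits, among them both other scalings (DESeq2's size factors and library size alone) and those without WT 2, DKO-severe 3, or DKO-severe 4. *Grap2* and *Grb2* encode adaptors of the same family, and their levels per kb of exon were 61.3 and 77.0 CPM in WT and 11.8 and 60.6 CPM in DKO-severe. *Nck1* and *Nck2*, adaptors to the actin machinery, did not pass the threshold of edgeR in DKO-severe, with log2 fold changes of -0.11 (SE 0.12, adjusted p = 0.448 in edgeR) and 0.16 (SE 0.10, adjusted p = 0.211 in edgeR).

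**Figure D4:**
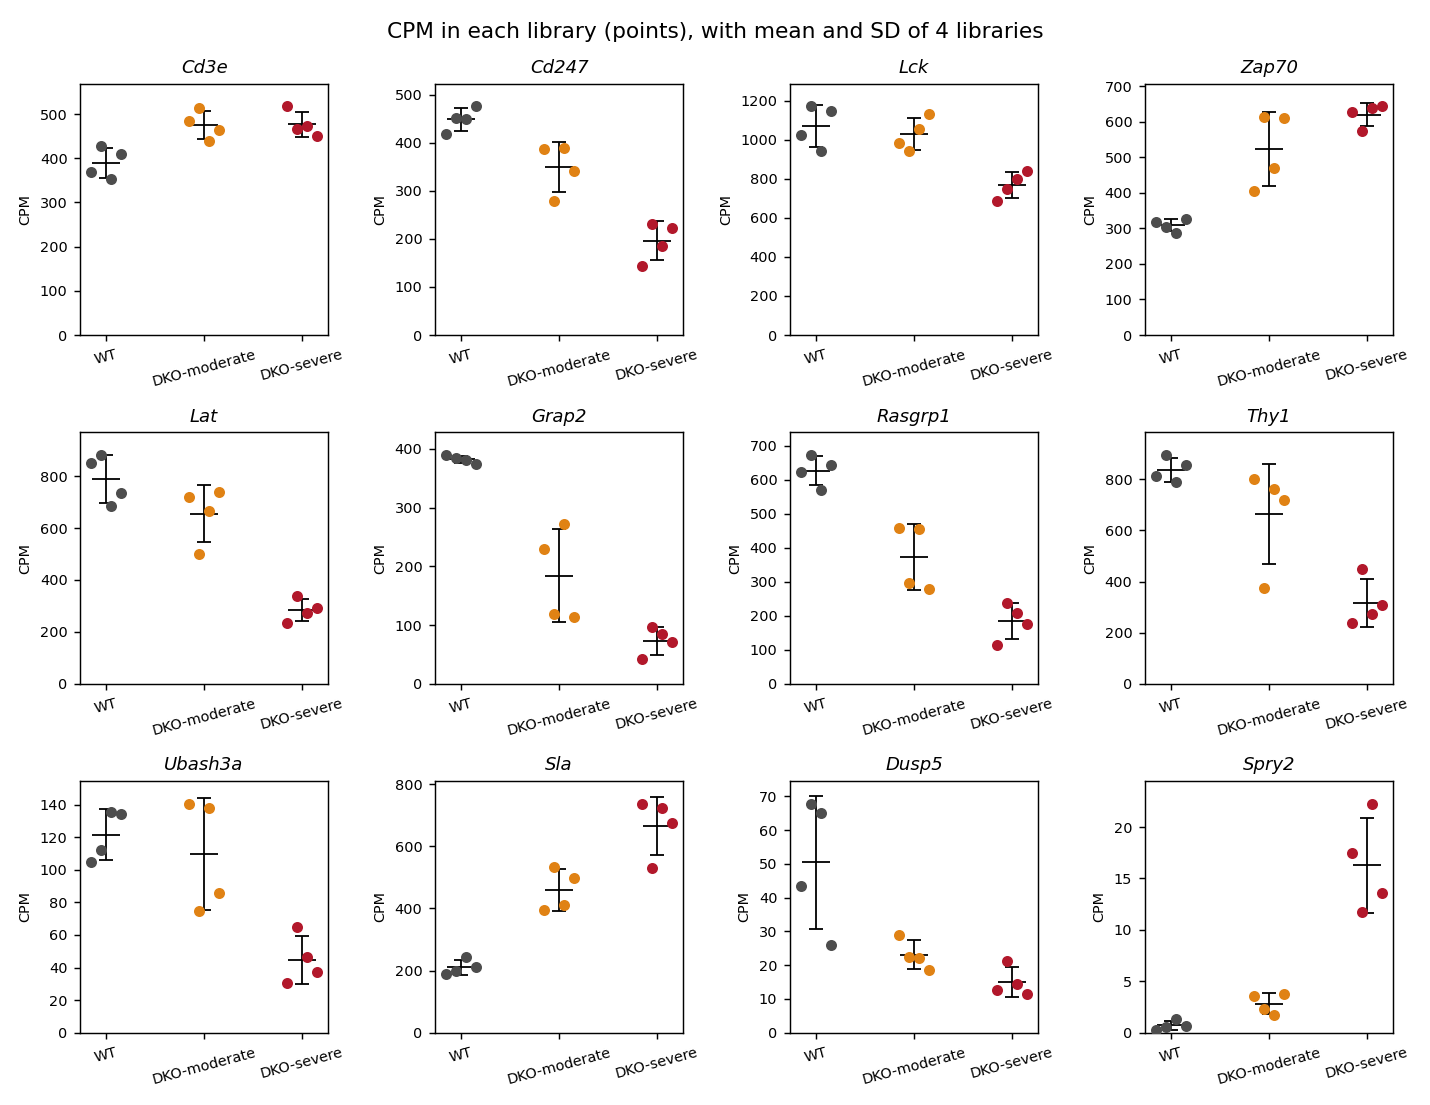
CPM (y axis, from 0) of 12 of the genes in each library, 1 point per library, with the mean and SD of 4 libraries as a bar. *Lat*, *Grap2*, *Rasgrp1*, and *Thy1* step down to DKO-severe, *Zap70*, *Sla*, and *Spry2* step up, and *Cd3e* in DKO-severe stays at 122% of its WT mean.

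Of the 6 genes in the branches behind LAT, 4 fell and 1 rose in DKO-severe against WT, beside 25.9% and 26.6% of all genes. RASGRP1 is the diacylglycerol-regulated exchange factor that loads RAS with GTP in T cells. *Rasgrp1* (chr2:117279993-117343001) was at 622, 671, 569, and 644 CPM across WT, 458, 297, 454, and 279 CPM across DKO-moderate, and 115, 238, 209, and 177 CPM across DKO-severe. The ranges of the 3 groups were apart, in the order WT, DKO-moderate, DKO-severe, with DKO-moderate 2 and DKO-moderate 4 nearest to DKO-severe. *Rasgrp1* had a log2 fold change of -1.76 (SE 0.22, adjusted p = 5.81e-05 in edgeR) in DKO-severe against WT, -0.75 (SE 0.22, adjusted p = 0.0329 in edgeR) in DKO-moderate against WT, and -1.01 (SE 0.22, adjusted p = 0.00976 in edgeR) between the DKO groups. The call in DKO-moderate was lost in 5 of the fits that left out 1 library, the same libraries as for *Grap2*, and when replicate numbers entered the fit as a block (adjusted p = 0.0642 in edgeR). *Sos1*, the other RAS exchange factor listed, had a log2 fold change of -0.69 (SE 0.22, adjusted p = 0.0209 in edgeR), which was lost with library size alone and without WT 3, DKO-severe 1, or DKO-severe 4.

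*Plcg1* encodes the phospholipase that makes diacylglycerol and IP3, and *Prkcq* encodes protein kinase C theta. In DKO-severe, *Plcg1* had a log2 fold change of -0.96 (SE 0.13, adjusted p = 0.000118 in edgeR) and *Prkcq* of -0.58 (SE 0.11, adjusted p = 0.000698 in edgeR), and for both genes every DKO-severe library was below every WT library. BCL10 and MALT1 form the complex with CARMA1 that leads to NF-kB. *Bcl10* had a log2 fold change of 0.12 (SE 0.08, adjusted p = 0.211 in edgeR) and did not pass, whereas *Malt1* rose, with 0.86 (SE 0.21, adjusted p = 0.00532 in edgeR) in DKO-severe. *Malt1* also rose in DKO-moderate, where its log2 fold change was 0.76 (SE 0.21, adjusted p = 0.0302 in edgeR). A single library stood out there, DKO-moderate 2 at 543 CPM beside 227, 281, and 312 CPM in the others, and the call in DKO-moderate was lost when WT 1, WT 2, WT 4, or DKO-moderate 4 was left out.

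All 4 surface molecules that tune the receptor fell in DKO-severe against WT, where 25.9% of all genes fell. None passed the threshold in DKO-moderate against WT, where 17.1% of all genes passed. CD5 and CD6 are related receptors that dampen signaling, and their genes lie close together on chromosome 19. *Cd5* (chr19:10717116-10739002) was counted at 500.5, 518, 408, and 574 CPM across WT, 402, 311, 473, and 262 CPM across DKO-moderate, and 195, 244, 308, and 187 CPM across DKO-severe. *Cd6* (chr19:10789341-10830058) was at 611, 609, 486, and 596 CPM across WT, 411, 351, 500.0, and 290.0 CPM across DKO-moderate, and 167, 233, 365, and 152 CPM across DKO-severe. In both genes WT and DKO-moderate overlapped, all DKO-severe libraries were below WT, and DKO-severe 3 was the highest of its group and lay within the DKO-moderate range. Against WT, the log2 fold change in DKO-severe was -1.10 (SE 0.20, adjusted p = 0.000756 in edgeR) for *Cd5* and -1.33 (SE 0.25, adjusted p = 0.000986 in edgeR) for *Cd6*. Between the DKO groups it was -0.63 (SE 0.20, adjusted p = 0.0434 in edgeR) for *Cd5*, a call lost in 8 of the 12 fits that left out 1 library, and -0.76 (SE 0.25, adjusted p = 0.0509 in edgeR) for *Cd6*. THY1 is a glycolipid-anchored protein of T cells that can modulate activation. *Thy1* (chr9:44043384-44048579) was at 812, 893, 788, and 855 CPM across WT, 800.4, 373, 760.0, and 717 CPM across DKO-moderate, and 236, 448, 274, and 307 CPM across DKO-severe. DKO-moderate 2 lay far below the other DKO-moderate libraries and within the DKO-severe range, and the other 3 lay within or below the WT range. Its log2 fold change was -1.40 (SE 0.23, adjusted p = 0.000399 in edgeR) in DKO-severe against WT and -1.07 (SE 0.23, adjusted p = 0.0102 in edgeR) between the DKO groups. *Cd2*, a costimulatory adhesion receptor, had the tightest WT values of these 4 genes, 353 ± 3.07 CPM (SD over 4 mice), and was at 219 ± 19.6 CPM (SD over 4 mice) in DKO-severe, giving a log2 fold change of -0.69 (SE 0.09, adjusted p = 6.37e-05 in edgeR).

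Of the 8 phosphatases and other restraints of the proximal kinases, 4 fell, 1 rose, and 3 did not pass in DKO-severe against WT. Among all genes 52.6% passed, 25.9% lower and 26.6% higher. SLAP, encoded by *Sla*, is an adaptor that binds the receptor complex and promotes its degradation through CBL. *Sla* (chr15:66780819-66831829) was at 188, 198, 244, and 212 CPM across WT, 394, 532, 411, and 499 CPM across DKO-moderate, and 736, 529, 723, and 674 CPM across DKO-severe. Every DKO library was above every WT library, and DKO-severe 2 reached down into the DKO-moderate range. *Sla* had a log2 fold change of 1.66 (SE 0.14, adjusted p = 6.46e-06 in edgeR) in DKO-severe against WT, 1.12 (SE 0.13, adjusted p = 0.000343 in edgeR) in DKO-moderate against WT, and 0.54 (SE 0.13, adjusted p = 0.017 in edgeR) between the DKO groups, a call lost without DKO-moderate 1 or DKO-moderate 3. *Sla2*, the related adaptor, had a log2 fold change of -0.14 (SE 0.09, adjusted p = 0.193 in edgeR) in DKO-severe against WT and did not pass. *Ubash3a*, which encodes the STS-2 protein that opposes ZAP-70 signaling, was at 105, 112, 135, and 134 CPM across WT, 140.3, 75.0, 138, and 85.9 CPM across DKO-moderate, and 30.7, 64.6, 46.2, and 37.6 CPM across DKO-severe. WT and DKO-moderate overlapped, and DKO-severe was below both. Its log2 fold change was -1.44 (SE 0.25, adjusted p = 0.000488 in edgeR) against WT and -1.29 (SE 0.25, adjusted p = 0.00625 in edgeR) against DKO-moderate. The related *Ubash3b*, for STS-1, had a log2 fold change of -0.47 (SE 0.10, adjusted p = 0.00259 in edgeR) against WT.

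The remaining restraints had log2 fold changes between -0.29 and 0.17 in DKO-severe against WT. CD45, encoded by *Ptprc* and the most abundant member by CPM, removes the inhibitory phosphate from LCK, which CSK puts on. *Ptprc* was at 2849.7 ± 133 CPM (SD over 4 mice) in WT and 2416 ± 45.2 CPM (SD over 4 mice) in DKO-severe, giving a log2 fold change of -0.24 (SE 0.09, adjusted p = 0.0377 in edgeR). This call was lost in 16 alternative fits. Among them were 7 of the 12 fits that left out 1 library, DESeq2, both other scalings, and the fit with replicate numbers as a block. *Csk* had a log2 fold change of -0.29 (SE 0.09, adjusted p = 0.0162 in edgeR) in DKO-severe against WT, which was lost with both other scalings and without DKO-severe 3 or DKO-severe 4. *Ptpn6*, for the phosphatase SHP-1, and *Ptpn22*, for a phosphatase that works with CSK, had log2 fold changes of -0.16 (SE 0.11, adjusted p = 0.26 in edgeR) and 0.17 (SE 0.11, adjusted p = 0.227 in edgeR) and did not pass in edgeR.

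Of the 5 feedback genes on the MAP kinases, both Sprouty genes rose and 2 of 3 phosphatase genes fell in DKO-severe against WT. The shares over all genes were 26.6% higher and 25.9% lower. Sprouty proteins inhibit the path from receptors to RAS and ERK. *Spry2* (chr14:105891947-105896819) was at 0.287, 0.581, 1.32, and 0.683 CPM across WT, 3.56, 2.30, 1.69, and 3.79 CPM across DKO-moderate, and 17.5, 11.8, 22.2, and 13.5 CPM across DKO-severe. All 3 groups were apart, with 10 to 46 reads behind the WT values and 387 to 934 in DKO-severe. Its log2 fold change was 4.49 (SE 0.45, adjusted p = 1.49e-05 in edgeR) in DKO-severe against WT, 1.97 (SE 0.42, adjusted p = 0.00746 in edgeR) in DKO-moderate against WT, and 2.52 (SE 0.40, adjusted p = 0.00384 in edgeR) between the DKO groups, and its call in DKO-severe against WT was kept in each alternative fit run. *Spry1* (chr3:37639947-37644598) was at 10.7, 14.2, 15.8, and 17.1 CPM across WT, 36.2, 46.0, 28.0, and 27.3 CPM across DKO-moderate, and 20.2, 31.8, 28.8, and 49.2 CPM across DKO-severe. Both DKO groups were above WT and overlapped each other. *Spry1* had a log2 fold change of 1.17 (SE 0.26, adjusted p = 0.00258 in edgeR) in DKO-severe, 1.25 (SE 0.26, adjusted p = 0.0069 in edgeR) in DKO-moderate, and -0.08 (SE 0.25, adjusted p = 0.845 in edgeR) between the DKO groups. Per kb of exon the WT level of *Spry2* was 0.344 CPM and that of *Spry1* 4.96 CPM, and in DKO-severe they were 7.80 and 11.2 CPM.

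Dual specificity phosphatases remove the activating phosphates of MAP kinases, and their genes are induced by the same kinases. *Dusp5* (chr19:53529109-53542431) was at 43.4, 67.7, 65.0, and 25.9 CPM across WT, 29.0, 22.3, 22.2, and 18.7 CPM across DKO-moderate, and 12.8, 21.4, 14.4, and 11.4 CPM across DKO-severe. WT spread widely, with WT 4 inside the DKO-moderate range, and all DKO-severe libraries were below WT. Its log2 fold change was -1.75 (SE 0.29, adjusted p = 0.000375 in edgeR) in DKO-severe against WT and -1.13 (SE 0.28, adjusted p = 0.0178 in edgeR) in DKO-moderate against WT, where the call was lost without WT 2. *Dusp2* had a log2 fold change of -1.0 (SE 0.17, adjusted p = 0.000456 in edgeR) in DKO-severe against WT and -0.91 (SE 0.17, adjusted p = 0.00573 in edgeR) against DKO-moderate, and its DKO-severe libraries lay between 214 and 230.0 CPM, below all others. *Dusp6* had a log2 fold change of 0.13 (SE 0.17, adjusted p = 0.548 in edgeR) and did not pass.

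Ratios within a library show how partners moved against each other, and they do not depend on the scaling between libraries. They were chosen after the values had been seen and are given as descriptions, on levels per kb of exon. The ratio of *Lat* to *Zap70*, a substrate and its kinase, was 2.88, 3.14, 2.57, and 2.44 in WT, 1.92, 0.877, 1.53, and 1.31 in DKO-moderate, and 0.404, 0.635, 0.465, and 0.494 in DKO-severe. The 3 groups did not overlap, and the mean moved from 2.76 ± 0.314 (SD over 4 mice) to 0.499 ± 0.0976 (SD over 4 mice). The ratio of *Cd247* to *Cd3e* was 0.886 ± 0.0695 (SD over 4 mice) in WT, 0.568 ± 0.111 (SD over 4 mice) in DKO-moderate, and 0.318 ± 0.0798 (SD over 4 mice) in DKO-severe, again with ranges apart. For *Grap2* to *Lcp2*, whose proteins bind each other, the means were 0.734 ± 0.0831 (SD over 4 mice), 0.258 ± 0.126 (SD over 4 mice), and 0.109 ± 0.0397 (SD over 4 mice) in the same order, and DKO-severe 2 at 0.150 nearly met the lowest DKO-moderate library at 0.151. The ratio of *Sla* to *Sla2* rose from 1.16 ± 0.0901 (SD over 4 mice) in WT to 2.28 ± 0.450 (SD over 4 mice) in DKO-moderate and 4.07 ± 0.644 (SD over 4 mice) in DKO-severe. Relative to the sum of *Cd3d*, *Cd3e*, and *Cd3g* in each library, all 30 members called in DKO-severe against WT kept the sign of their difference, and the ranges of WT and DKO-severe were apart for 28 of them. *Lcp2* and *Spry1*, whose CPM ranges were apart, overlapped on this scale, and *Cd3e* is itself part of the sum.

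**Figure D5:**
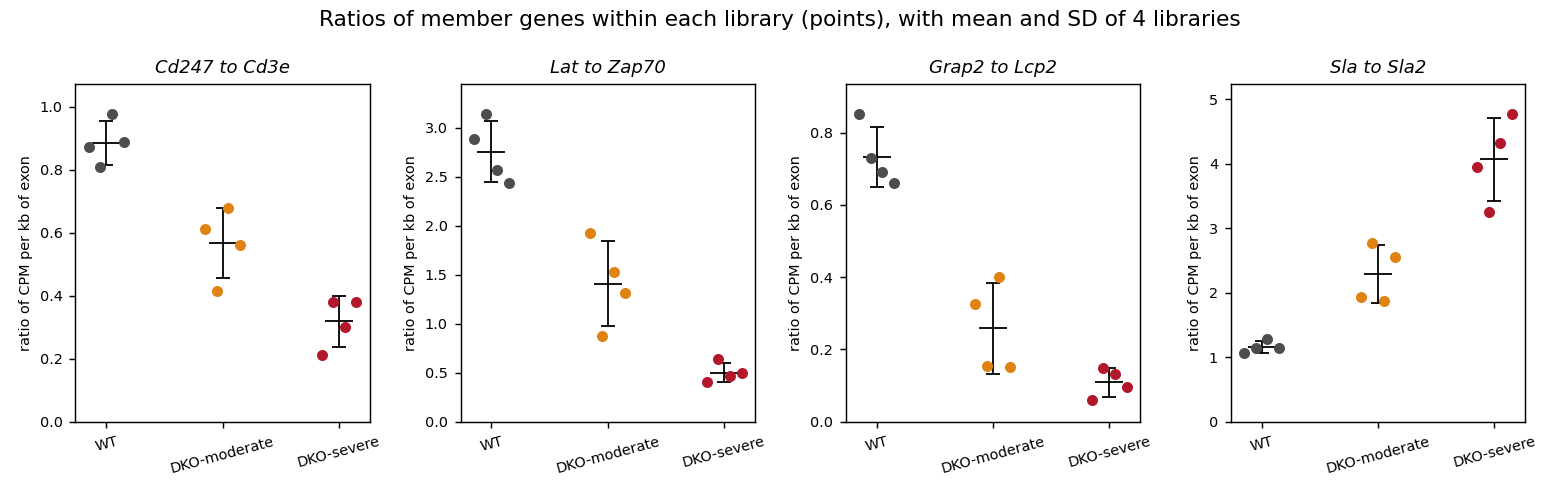
Ratio of the levels per kb of exon of 4 gene pairs (y axis, from 0) in each library, 1 point per library, with the mean and SD of 4 libraries as a bar. *Lat* to *Zap70* falls from between 2.44 and 3.14 in WT to between 0.404 and 0.635 in DKO-severe, and *Sla* to *Sla2* rises to between 3.24 and 4.76.

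Libraries of DKO-moderate were not alike. For *Grap2*, *Rasgrp1*, *Themis*, *Cd5*, *Cd6*, *Ubash3a*, and *Sos1*, DKO-moderate 2 and DKO-moderate 4 were the 2 lowest libraries of the group, and for *Zap70* and *Sla* they were the 2 highest. Not every member followed this order. For *Lat* and *Lck*, DKO-moderate 4 was the highest library of the group, at 739 and 1132 CPM, and DKO-moderate 2 the lowest. How many members or other genes shared the order was not counted. The naive T cell genes summed to 2509 and 2463 CPM in DKO-moderate 2 and DKO-moderate 4 and to 3682 and 3925 CPM in DKO-moderate 1 and DKO-moderate 3. DKO-moderate 2 and DKO-moderate 4 held 0 and 1 reads on Y-linked genes, and the other 2 at least 18555. When only the 8 libraries with Y-linked reads were fitted, a choice made after those reads were seen, 2 members passed in DKO-moderate against WT, where 2.48% of all genes did, and 30 in DKO-severe against WT, where 46.6% did. With a term for Y-linked reads in the fit of all 12 libraries the counts were 8 and 30, beside 13.7% and 51.7% of all genes. In the first of these fits the log2 fold change of *Grap2* in DKO-moderate came to -0.61 (adjusted p = 0.337 in edgeR) and that of *Rasgrp1* -0.44 (adjusted p = 0.428 in edgeR). Whether sex or the share of naive cells has a part in the spread of DKO-moderate was not tested.

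A second list of 69 genes of T cell receptor signaling, among them coreceptors, adaptors, calcium, RAS, and NF-kB components, was measured in full. In DKO-severe against WT 25 of them were lower and 17 higher past the threshold (60.9% in all, against 52.6% of all genes tested), with a median log2 fold change of -0.17. In DKO-moderate against WT 5 were lower and 8 higher (18.8%, against 17.1%), and between the DKO groups 13 were lower and 6 higher (27.5%, against 20.1%). The 3 largest falls in DKO-severe were in transmembrane adaptors of the same kind as LAT. *Pag1*, whose protein anchors CSK, was at 43.7 ± 20.1 CPM (SD over 4 mice) in DKO-severe and 226 ± 13.1 CPM (SD over 4 mice) in WT, a log2 fold change of -2.37 (SE 0.37, adjusted p = 0.000249 in edgeR). *Sit1* had a log2 fold change of -2.33 (SE 0.25, adjusted p = 2.06e-05 in edgeR) and *Trat1* of -2.28 (SE 0.31, adjusted p = 9.26e-05 in edgeR). Among the genes that rose were a further transmembrane adaptor, *Lax1*, with a log2 fold change of 1.12 (SE 0.17, adjusted p = 0.000203 in edgeR), and *Gab2*, a scaffold for the phosphatase SHP-2, with 3.89 (SE 0.67, adjusted p = 0.000466 in edgeR).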

How the data were processed

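RNA was sequenced from 12 libraries, 4 each from WT, DKO-moderate, and DKO-severe mice. Per the study's methods and the labels, the authors prepared directional libraries, aligned reads to mm10 with STAR 2.7.11 keeping uniquely placed reads, and counted these with reverse-stranded htseq-count. The deposited values are these raw counts per gene, not normalized. Reads on genes ranged from 29254260 to 42133536 per library, and 18.53% to 23.73% of the records were not assigned to a single gene and were left out.

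A gene entered the tests when the libraries of any 1 condition held 10 or more reads on it together, which left 16035 of 26608. The 12 libraries were fitted together with edgeR 4.0.16 (TMM scaling, quasi-likelihood F test, R 4.3.3), with p-values adjusted after Benjamini and Hochberg over every gene tested and called under 0.05. The standard error (SE) of each log2 fold change was taken as its absolute value over the root of F. With 1 library per mouse, p-values weigh each difference between groups against the spread between mice, which was estimated over all 12 libraries. The authors used DESeq2, which was run as an alternative (1.42.0), with limma voom (3.58.1) and the settings in the closing section. The fit was tested on simulated data. Replicate numbers did not pair the libraries (median residual correlation -0.034 for the same number and 0.013 for different numbers), and no 2 libraries of a group agreed within sampling noise (chi-square per degree of freedom at least 22.9).

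The members and gene lists were chosen with earlier results of these data known. Values in every library are given for the 4 receptor chains, *Lck*, *Zap70*, *Lat*, and every member past the threshold whose log2 fold change reached 1 in size in any comparison. Of the second list, means or fold changes are given for the 3 genes that rose most and the 3 that fell most among those whose higher group averaged 5 CPM or more, of which 1 is not reported here. Coordinates and exon lengths are from GENCODE vM21, promoters from RefSeq (GRCm38.p6). Tables and plots were made in Python 3.11.15.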

Additional observations from a re-analysis of the deposited data

Results flagged for a closer look

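In each of the 120 groups of 4 libraries (40 genes in 3 groups), the highest and the lowest library were compared with the other 3, and 4 values stood apart. In independent groups, chance alone would set about 1 in 20 apart. These 120 groups share the same 12 libraries, so the count of 4 cannot show whether chance set them apart. *Cd2* was at 248.7 CPM in DKO-severe 2, beside 208.2 to 211.5 CPM in the other DKO-severe libraries. *Cd6* was at 486.2 CPM in WT 3, beside 596.4 to 611.0 CPM. *Ptpn6* was at 341.5 CPM in WT 3, beside 291.1 to 297.0 CPM. *Ptpn22* was at 295.2 CPM in DKO-severe 2, beside 244.1 to 251.5 CPM. WT 3 and DKO-severe 2 are also the libraries with the most B cell transcripts (215.7 and 327.5 CPM over 9 genes), and the part of these transcripts in the 4 values was not tested.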

How the results depend on the processing

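No member past the threshold turned its direction under any alternative fit. Of the 57 calls in the 3 comparisons, 37 were kept in all fits of other tools, scalings, filters, or libraries, 25 of 30 in DKO-severe against WT, 2 of 11 in DKO-moderate against WT (*Zap70* and *Sla*), and 10 of 16 between the DKO groups. In DKO-severe against WT the count of genes past the threshold was 14 when the log2 fold change also had to reach 1 in size (27.4% of all genes), and between 27 and 32 without 1 library (45.5% to 56.4%). In DKO-moderate against WT it was 5 at an adjusted p-value under 0.01 (7.12%), 5 with that fold change (9.35%), 2 with only the libraries that have Y-linked reads (2.48%, chosen after seeing the data), and between 6 and 12 without 1 library (10.1% to 18.3%), the 6 being without WT 1, WT 2, or WT 4, and 7 without DKO-moderate 2 or DKO-moderate 4. Between the DKO groups it was 27 in limma voom (38.2% of all genes, against 20.1% in edgeR), 8 at an adjusted p-value under 0.01 (5.77%), 6 with that fold change (8.8%), and between 12 and 21 without 1 library (10.3% to 23.0%). Stricter thresholds lower a count by construction, and for the other shifts the cause was not tested. With the replicate number as a block the counts were 30, 8, and 15, beside 48.6%, 13.7%, and 14.5% of all genes. In DKO-severe against WT the calls of *Ptprc*, *Grb2*, *Csk*, *Sos1*, and *Cd3e* were lost in at least 1 fit. The fewest reads stood behind *Spry2* in WT, 10 to 46 per library.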
